A study of Heliconius himera and Heliconius erato lativitta and Heliconius erato petiverana with 18 samples.

Results

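The 31 gene IDs described here peaked in the hindwing and the forewing labelled number 1 of Heliconius himera, out of 14612 IDs listed for each library. They were chosen on their own levels. With X as 1 plus the counts per 1000000 gene reads (plain CPM), an ID was kept where the lower X of himera hindwing (HW) 1 and forewing (FW) 1 was at least 10 and at least 4 times the highest X of the other 16 libraries. Up to 150 IDs could be taken by rank of that ratio, and 31 met the conditions. How far these IDs stand above the other libraries is therefore a description and has no test. The choice did not fully settle how the IDs are ordered among the other 16 libraries, and it did not settle whether the wings differ.

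Messenger RNA was sequenced from whole wings 3 days after pupation, with rearing at about 27 °C. The 18 libraries were himera HW and FW, HW and FW of the H. erato race petiverana, and HW and FW of the H. erato race lativitta, with numbers 1 to 3 in each of these 6 groups. All groups share stage, temperature and poly-A selection, and the labels name no other treatment, allele, sex or age. The labels do not say that the numbered libraries come from separate animals, nor whether HW 1 and FW 1 come from the same animal, so a p-value reflects only how these libraries vary, which may be technical.

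Heliconius are Neotropical butterflies whose races and species differ in wing colour pattern. In the pupa the wing is a double sheet of epithelium, with tracheae running between the sheets and blood cells in the space. Cells of this epithelium become the scale cells that later carry the colours. The files pair the IDs with no gene names, so no role can be given to an ID, the tissue label could not be checked against marker genes, and no sequence or position is shown. In whole wings, fewer cells of a type and less RNA per cell cannot be told apart.

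The libraries held 4599197 to 17002996 gene reads, with 6838431 in himera HW 1 and 8543102 in himera FW 1. The number 1 libraries of himera stood apart from himera numbers 2 and 3 over all genes. Their taxon label could not be checked in these files and is used as deposited, so "himera 1" means the libraries labelled so. Their Spearman correlation across the 13620 IDs read in any library was 0.904 to 0.922 with petiverana libraries, 0.857 to 0.864 with himera 2 and 3, and 0.849 to 0.859 with lativitta. Without the 31 IDs the ranges were 0.906 to 0.924, 0.86 to 0.868 and 0.853 to 0.862. Genes are not independent replicates, so these are descriptions. Reads overlapping more than 1 annotated feature made up 0.653% to 0.715% in himera 1 and 0.453% to 0.694% in petiverana, against 1.44% to 1.70% in himera 2 and 3 and 1.40% to 1.77% in lativitta. Gene reads on the 10 IDs with the most reads made up 30.7% to 31.9% in himera 1 and 30.7% to 33.7% in petiverana, against 9.67% to 12.4% in himera 2 and 3 and 8.62% to 11.3% in lativitta. The part of these differences between libraries in the results below was not tested.

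The 31 IDs together took 14.4% of gene reads in himera HW 1 and 15.1% in himera FW 1. In himera 2 and 3 they took 0.0317% to 0.0400%, in petiverana 0.989% to 1.27% and in lativitta 0.0268% to 0.0461%. Most of this came from 3 IDs, HEL_010321, HEL_002655 and HEL_006245, which were among the 10 most abundant IDs of both himera 1 libraries and of none of the other 16. Without these 3, the remaining 28 took 2.67% and 3.36% of gene reads in himera HW 1 and FW 1, 0.0202% to 0.0258% in himera 2 and 3, 0.0727% to 0.293% in petiverana and 0.0210% to 0.0341% in lativitta. All of the petiverana libraries thus lay above all himera 2 and 3 and all lativitta libraries with and without the 3 abundant IDs.

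**Figure D1:**
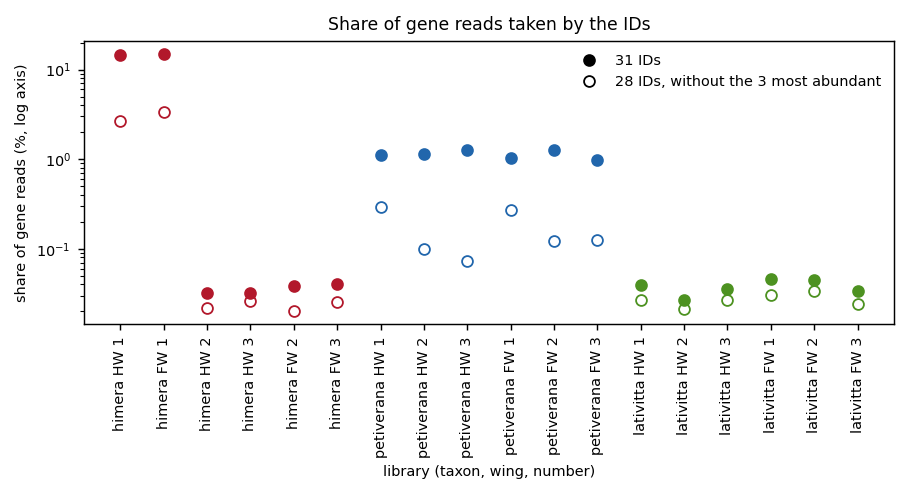
Share of all gene reads taken by the 31 IDs in each of the 18 libraries, in percent on a log axis. Filled points hold all 31 IDs and open points the 28 left without HEL_010321, HEL_002655 and HEL_006245. The himera 1 points for all 31 IDs sit at 14.4% and 15.1%, petiverana at 0.989% to 1.27%, and both remaining sets under 0.05%.

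Levels from here on are CPM after TMM scaling (a scaling of the libraries that assumes most IDs are unchanged), since plain CPM of petiverana and lativitta are shifted against each other. The median log2 ratio of petiverana to lativitta over the 10238 IDs tested was -1.07 in HW and -1.11 in FW on plain CPM, and 0.07 and 0.04 after TMM. The lower level of the members in himera 1 ran from 17.0 to 86151 CPM, with a median of 140.2. It was under 20 CPM for 2 IDs, 20 to 100 for 11, 100 to 1000 for 8 and at least 1000 for 10. The median ratio of X was 6.61, with 8 IDs at 8 or more and 4 at 20 or more. The fewest reads of any member in a himera 1 library were 96, so these levels do not rest on single reads.

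The highest of the other 16 libraries after TMM scaling was a petiverana library for 26 of the 31 IDs. It was a himera library for 3 and a lativitta library for 2. The share over all IDs is not given, so this count has no background beside it. The rule's limit on plain CPM also left petiverana more room after TMM scaling. On plain CPM, which the rule used, the highest was less often a petiverana library, because petiverana is shifted down there. No member had all 6 himera libraries above all 12 of the others. Every member was read in at least 1 petiverana library, while 2 had no read in himera 2 and 3 and 4 had no read in lativitta. Each library of himera 2 and 3 lacked 3 to 5 members, each petiverana library 0 to 2, and each lativitta library 5 to 7. Shares of all IDs without reads are not given, so these counts have no background beside them. A count of 0 reads allows up to 3 reads of the library, and this covers counting error only.

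**Figure D2:**
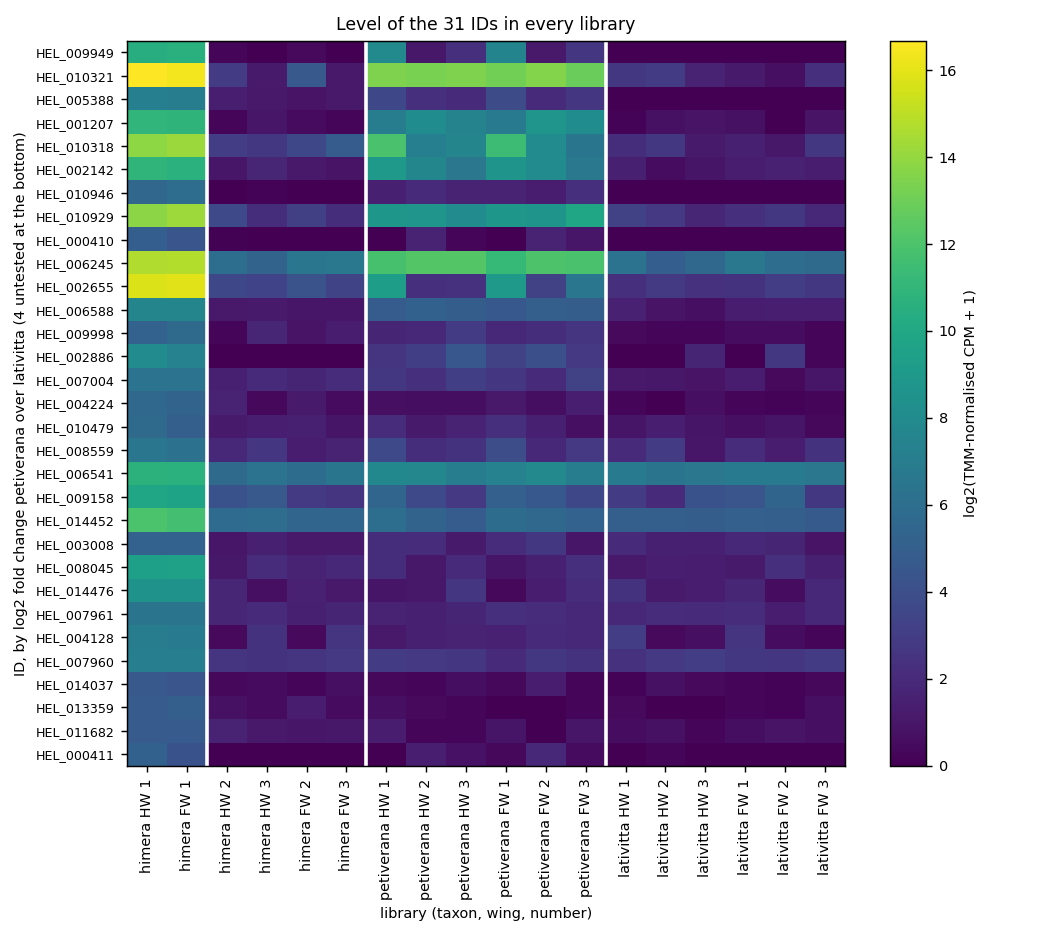
Levels of the 31 IDs in the 18 libraries as log2(TMM-normalised CPM + 1), 1 row per ID and 1 column per library, with both himera 1 libraries at the left. Rows follow the log2 difference between petiverana and lativitta, with the 4 untested IDs at the bottom. The upper rows keep intermediate levels in petiverana, while the lower rows show smaller differences between petiverana and lativitta.

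HEL_002655 had the highest ratio, at 104.6. It was at 56272 and 63301 CPM in himera HW 1 and FW 1, from 241674 and 357125 reads, which made it the fourth and the third most abundant ID. In himera 2 and 3 it was at 11.1 and 9.09 CPM in HW and at 18.2 and 9.73 in FW. In petiverana it was at 630, 3.77 and 4.16 CPM in HW 1 to 3 and at 513, 8.88 and 92.8 in FW 1 to 3. In lativitta it was at 4.06, 6.05 and 4.10 CPM in HW and at 4.53, 7.18 and 5.37 in FW. Outside himera 1 it was thus high only in petiverana number 1 and, less so, in petiverana FW 3.

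HEL_008045, the second in ratio at 60.7, had no such petiverana level. It was at 675.5 and 730 CPM in himera HW 1 and FW 1, from 2901 and 4117 reads. In himera 2 and 3 it was at 1.08 and 3.30 CPM in HW and at 2.17 and 2.67 in FW. In petiverana it ran from 0.928 to 4.06 CPM and in lativitta from 1.24 to 3.77. The 3 ranges outside himera 1 overlap.

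HEL_010321 was the most abundant ID of both himera 1 libraries and the member with the highest level elsewhere. It was at 104649 and 86151 CPM in himera HW 1 and FW 1, from 449437 and 486039 reads. In himera 2 and 3 it was at 6.57 and 1.30 CPM in HW and at 23.7 and 1.21 in FW. Petiverana levels were 11243.5, 10089 and 11435 CPM in HW and at 9008, 12016 and 7599 in FW. In lativitta it was at 5.53, 6.70 and 2.11 CPM in HW and at 1.28, 0.589 and 3.77 in FW. Petiverana stood above himera 2 and 3 and above lativitta in every library, with no overlap.

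HEL_006245 followed the same order at lower levels. It was at 26175 and 27905 CPM in himera HW 1 and FW 1. In himera 2 and 3 it was at 65.4 and 37.9 CPM in HW and at 94.5 and 99.6 in FW. Petiverana levels were 3682, 4688 and 4718 CPM in HW and at 2354, 4151 and 3823 in FW. In lativitta it was at 81.7, 30.9 and 48.8 CPM in HW and at 100.8, 61.8 and 54.4 in FW, which overlaps himera 2 and 3.

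The rule's edge was not a gap. On plain CPM, HEL_001207 and HEL_002142 were just inside, with ratios of 4.003 and 4.07, and HEL_005658 and HEL_001786 just outside, with 3.91 and 3.85. At the level limit, HEL_000411 and HEL_000410 were inside with a lower X of 12.2 and 14.1, and the next with a sufficient ratio, HEL_011899, had 5.68. On TMM-normalised CPM the same rule took 54 IDs, which held 29 of the 31 and lacked HEL_010318 and HEL_002142. Asking for a ratio of 8 left 8 IDs.

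The order among the other 16 libraries was then tested. The 2 himera 1 libraries were left out of the filter and the fit, and edgeR's quasi-likelihood test was run over the 10238 IDs that passed its filter on low counts, with Benjamini-Hochberg adjustment over all of them and a threshold of 0.05. The rule set an upper limit for these libraries on plain CPM. TMM factors were 0.535 to 0.751 in petiverana, 1.33 to 1.59 in lativitta and 1.21 to 1.31 in himera 2 and 3. After scaling, the limit was thus higher for petiverana than for the others. The choice could therefore favour an order with petiverana on top, and how much it did was not tested. Of the 31 members, 27 were tested and 4 were too low, namely HEL_014037, HEL_013359, HEL_011682 and HEL_000411. The counts below are out of 27. Without the petiverana libraries 23 members would have passed the filter, so a few were testable only through petiverana.

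Petiverana was higher than lativitta for 14 tested members in HW and for 15 in FW, and 0 were lower in either wing. Over all 10238 IDs, 20.7% were called higher and 17.0% lower in HW, and 20% and 16.9% in FW. The median log2 difference of the 27 members was 3.88 in HW and 2.64 in FW, against 0.07 and 0.04 over all IDs tested. The same 14 IDs were higher in both wings, where the share over all IDs was 17.1%, and HEL_004224 was added in FW. Wings of equal number may share an animal, so agreement of HW and FW, here and below, is not a second independent result. That FW call, from 15 reads in petiverana and 5 in lativitta (edgeR adjusted p = 0.0479), was lost in 14 of 22 other settings. Of the 14, 11 would pass the filter without petiverana. HEL_001207, HEL_009949 and HEL_010946 would not, so they entered these counts only through the group where they are high. Over all 31 IDs, petiverana libraries lay wholly above lativitta libraries in both wings for 13 and wholly below for 0, with backgrounds of 12.7% and 13.3% among IDs read. DESeq2 called 13 members in HW and 16 in FW.

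**Figure D3:**
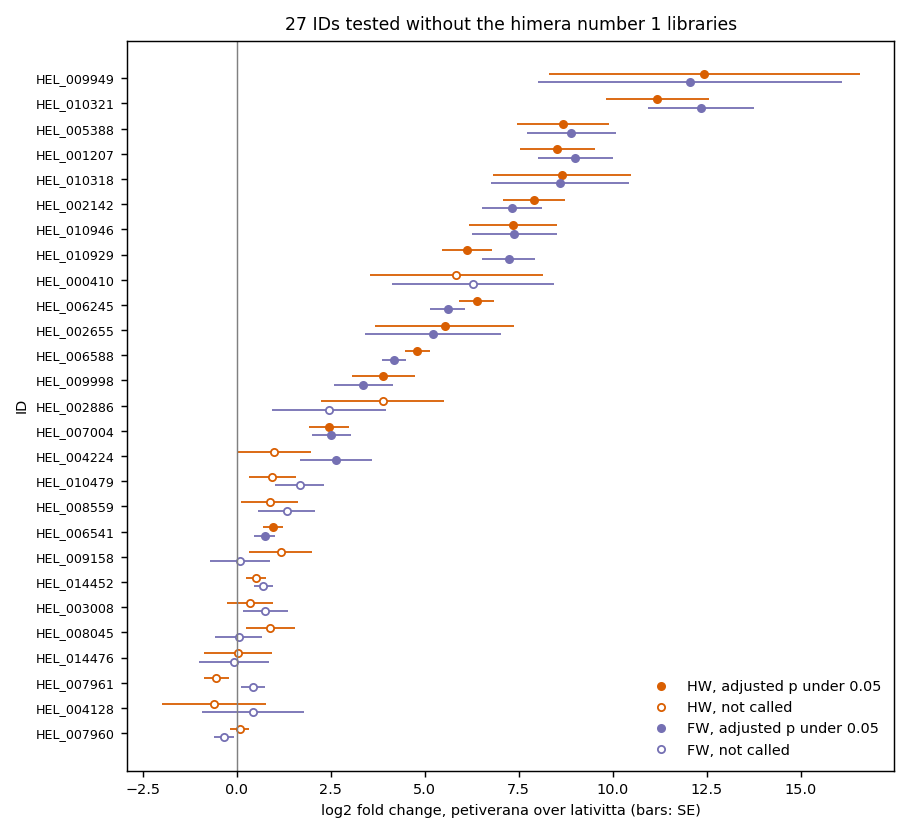
Log2 difference, petiverana over lativitta, of the 27 tested IDs in HW and FW, with bars of 1 standard error (SE) from the edgeR fit. For 23 of them both points lie above 0. The differences reach 12.43 in HW and 12.35 in FW, where the bars of HEL_009949 are the widest.

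The abundant IDs HEL_010321 and HEL_006245 were higher in petiverana in both wings. HEL_010321 averaged 10923 ± 728 CPM in petiverana HW and 4.78 ± 2.39 in lativitta HW (SD, n = 3 each), which is 11.19 higher on the log2 scale (SE 1.36, adjusted p = 7.49e-05 in edgeR). In FW it averaged 9541 ± 2256 CPM in petiverana and 1.88 ± 1.67 in lativitta (SD, n = 3 each), a difference of 12.35 (SE 1.42, adjusted p = 5.26e-05). HEL_006245 differed by 6.38 in HW (SE 0.47, adjusted p = 2.18e-06) and 5.61 in FW (SE 0.46, adjusted p = 4.60e-06). These 4 calls were kept under all 23 other settings tried.

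HEL_001207 and HEL_002142, the lowest 2 in the ranking, were at intermediate levels in petiverana and at 2.40 CPM or less in himera 2 and 3 and in lativitta. HEL_001207 was at 2031 and 1802 CPM in himera HW 1 and FW 1, at 126, 273 and 176 in petiverana HW, at 110, 418 and 275 in petiverana FW, and between 0 and 0.999 in himera 2 and 3 and in lativitta. HEL_002142 was at 1902 and 1610.5 CPM in himera HW 1 and FW 1, at 488, 201 and 98.8 in petiverana HW, at 396, 258 and 102 in petiverana FW, and between 0.490 and 2.40 in the remaining 10 libraries. Petiverana was higher than lativitta by 8.52 and 9.01 on the log2 scale for HEL_001207 in HW and FW (SE 0.999 and 1.01, edgeR adjusted p = 5.83e-05 and 4.40e-05). HEL_001207 was testable only through petiverana. For HEL_002142 the differences were 7.91 and 7.31 (SE 0.82 and 0.79, edgeR adjusted p = 2.56e-05 and 3.56e-05).

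For HEL_009949 a single petiverana number carried most of the level. It was at 1365 and 1559 CPM in himera HW 1 and FW 1 and at 0 to 0.325 in himera 2 and 3. Petiverana levels were 241, 1.08 and 3.97 CPM in HW and at 182, 1.20 and 5.28 in FW, and it had 0 reads in lativitta. On reads pooled over each group, petiverana HW was at least 462-fold and petiverana FW at least 424-fold higher than lativitta. The floor was 3 reads over the lativitta group (edgeR adjusted p = 0.045 in HW and 0.0473 in FW). These bounds rest mainly on petiverana number 1 and do not hold for petiverana 2 and 3 taken alone. HEL_009949 was testable only through petiverana. Without petiverana HW 1 the log2 difference in HW was 7.47 (adjusted p = 0.198), and without petiverana FW 1 that in FW was 7.81 (adjusted p = 0.19). Without both petiverana number 1 libraries the calls held, at 7.54 in HW and 7.89 in FW (edgeR adjusted p = 0.0173 and 0.0115). In all, leaving out 1 library ended the call in 8 fits in HW and 9 in FW, with an adjusted p of 0.052 to 0.198.

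HEL_002655 was also highest in petiverana number 1. Petiverana was higher than lativitta by 5.53 in HW (SE 1.85, edgeR adjusted p = 0.0338) and by 5.21 in FW (SE 1.82, adjusted p = 0.0402). Without both petiverana number 1 libraries the HW difference turned to -0.21 (adjusted p = 0.848), and that in FW was 3.19 (adjusted p = 0.00316). The HW libraries of the races overlap, at 3.77 CPM in petiverana HW 2 and 6.05 in lativitta HW 2. With the replicate number as a block both calls were lost. In all, the HW call was lost in 7 of the 23 other settings and the FW call in 12. Leaving out petiverana FW 1 alone gave an adjusted p of 0.152 in FW (edgeR).

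HEL_010318, chosen for description after its values were seen, also peaked in petiverana number 1. It was at 14434 and 18770 CPM in himera HW 1 and FW 1. In petiverana it was at 3763, 147 and 188 CPM in HW and at 2782, 268 and 88.1 in FW, against 1.29 to 5.56 in lativitta HW and 1.06 to 5.66 in lativitta FW. Here numbers 2 and 3 of petiverana were above lativitta as well. Without petiverana number 1 the log2 differences were 5.65 in HW and 6.08 in FW (edgeR adjusted p = 0.000107 and 7.37e-05), against 8.65 and 8.59 with it.

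Low-level members with no read in lativitta were also called. HEL_005388 was at 145 and 136 CPM in himera HW 1 and FW 1, at 1.64 and 1.20 in himera HW 2 and 3, and at 0.867 and 1.21 in himera FW 2 and 3. In petiverana it was at 11.3, 3.77 and 3.21 CPM in HW and at 13.0, 3.07 and 5.28 in FW. Petiverana was at least 41.9-fold higher than lativitta in HW (edgeR adjusted p = 0.000988) and at least 58.5-fold in FW (adjusted p = 0.000738). HEL_010946 was at 43.8 and 62.2 CPM in himera HW 1 and FW 1 and at 1.54 to 3.66 in petiverana, at least 19.3-fold and 23.1-fold above lativitta in HW and FW (edgeR adjusted p = 0.00277 and 0.00231). It had 1 read in himera 2 and 3 and was testable only through petiverana. These bounds use reads pooled over each group and a floor of 3 reads over the lativitta group, so single libraries can lie below them.

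The remaining called members, chosen for description after their values were seen except HEL_009998, ranged widely in size. HEL_010929 was at 13727 and 18896 CPM in himera HW 1 and FW 1, at 257 to 920 in petiverana and at 2.46 to 8.23 in lativitta. HEL_006588 was at 190 and 191 CPM in himera HW 1 and FW 1, at 23.2 to 35.9 in petiverana and at 0.585 to 1.92 in lativitta. HEL_007004 was at 80.8 and 82.2 CPM in himera HW 1 and FW 1, at 3.07 to 8.33 in petiverana and at 0.353 to 1.51 in lativitta. Each of these 3 had petiverana above lativitta in every library. HEL_009998 was at 37.7 and 54.1 CPM in himera HW 1 and FW 1, at 2.38 to 6.42 in petiverana and at 0.145 to 0.471 in lativitta.

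HEL_006541, chosen after its values were seen, had the smallest difference called in both wings. It was at 1665 and 1631 CPM in himera HW 1 and FW 1. In petiverana it was at 221, 211 and 125 CPM in HW and at 168, 230 and 136 in FW, against 110, 84.2 and 98.0 in lativitta HW and 121, 109 and 98.0 in lativitta FW. The log2 difference was 0.96 in HW (SE 0.27, edgeR adjusted p = 0.0157) and 0.74 in FW (SE 0.27, adjusted p = 0.0491), and on plain CPM its sign was opposite in both wings. In FW the call was lost under 16 of the 23 other settings.

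Himera numbers 2 and 3 were then set against petiverana. In HW 0 of the 27 tested members were higher and 10 were lower in himera, and in FW 0 were higher and 11 lower. Over all IDs tested, 14.6% were higher and 15.4% lower in HW, and 13.9% and 14.4% in FW. The members' median log2 difference was -1.58 in HW and -2.04 in FW, against -0.07 and -0.06 over all IDs. Both wings called 10 lower, where 12% of all IDs were. Among these 10, HEL_001207 and HEL_010946 would not pass the filter without petiverana, so they were testable only through the group where they are high. Over all 31 IDs himera 2 and 3 lay wholly below petiverana in both wings for 12 and wholly above for 0, with backgrounds of 13.4% and 15.6%. This comparison shares the petiverana libraries with the one above, so the 2 are not independent.

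HEL_010321 averaged 3.93 ± 3.73 CPM in himera HW 2 and 3 (SD, n = 2) and 10923 ± 728 in petiverana HW (SD, n = 3), with a log2 fold change of -11.46 (SE 1.66, adjusted p = 0.000403 in edgeR). In FW the difference was -9.62 (SE 1.55, adjusted p = 0.000844). HEL_001207, testable only through petiverana, differed by -8.49 in HW (SE 1.18, edgeR adjusted p = 0.000311) and -9.79 in FW (SE 1.27, adjusted p = 0.0002). HEL_002886 had 0 reads in all 4 libraries of himera 2 and 3, although it was at 259 and 167 CPM in himera HW 1 and FW 1. It was at 5.06, 7.72 and 22.5 CPM in petiverana HW, at 8.35, 16.05 and 5.89 in petiverana FW, and at 0 to 5.65 in lativitta, where 3 of the 6 libraries held reads of it. On reads pooled over each group, himera 2 and 3 were at least 131-fold lower in HW and at least 74.4-fold lower in FW (edgeR adjusted p = 0.034 and 0.047). The floor was 3 reads over the himera group. The HW call was lost without himera HW 2, without himera HW 3 or without petiverana HW 3 (adjusted p 0.0658 to 0.173), and the FW call in 11 of the 23 other settings. Without himera HW 2 the number of members lower in HW was 6, and without himera FW 2 that in FW was 7.

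Himera 2 and 3 were also set against lativitta, where the members' counts are near the shares over all IDs. In HW 1 of 27 members was higher and 0 lower, against 2.96% and 1.84% of all IDs. The unadjusted edgeR p was under 0.05 for 4 of the 27 members and for 2027 of the 10238 IDs tested, a larger share. In FW edgeR called 0 members in either direction, against 0.869% and 0.547% of all IDs, while 1 was called by DESeq2. In this wing the unadjusted edgeR p was under 0.05 for 4 of the 27 members and for 1786 of the 10238 IDs, again a larger share. The single called ID was HEL_005388, at 47 reads in himera HW 2 and 3 and 0 in lativitta HW, at least 11.8-fold higher (edgeR adjusted p = 0.0309). In FW it was at least 10.1-fold higher (adjusted p = 0.0642). The HW call was lost without either himera HW library, either himera FW library or any 1 lativitta HW library, with an adjusted p of 0.052 to 0.123. A p above the threshold does not show that himera 2 and 3 and lativitta have equal levels. Over all 31 IDs, himera 2 and 3 lay wholly above lativitta in both wings for 5 and wholly below for 0, with backgrounds of 9.64% and 8.63%.

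A further 11 members were tested and called in none of these comparisons in the fit of 16 libraries. They include HEL_008045 above. HEL_014452, chosen after its values were seen, was at 3941 and 3325 CPM in himera HW 1 and FW 1. It was at 42.5 to 59.9 CPM in himera 2 and 3, at 27.8 to 63.1 in petiverana and at 25.1 to 32.9 in lativitta. Its petiverana to lativitta difference was 0.52 in HW (edgeR adjusted p = 0.136) and 0.70 in FW (adjusted p = 0.0503), and the FW difference was called without petiverana number 1 (0.51, adjusted p = 0.0319). In HW, himera 2 and 3 were above lativitta by 0.89 (edgeR adjusted p = 0.0985), and the adjusted p was 0.0435 in DESeq2, 0.0192 with only the groups compared, 0.0179 with the replicate block and 0.00653 without petiverana number 1. HEL_014476, also chosen after its values were seen, was at 373 and 353 CPM in himera HW 1 and FW 1, and at 0.599 to 2.39 in himera 2 and 3, 0.309 to 5.10 in petiverana and 0.471 to 4.40 in lativitta. For HEL_014476 the 3 ranges overlap, while for HEL_014452 himera 2 and 3 lay above lativitta in every library. The other members without a call are HEL_007960, HEL_007961, HEL_009158, HEL_004128, HEL_010479, HEL_000410, HEL_008559 and HEL_003008.

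In 2 places members had consecutive ID numbers. HEL_007960 was at 142 and 140 CPM in himera HW 1 and FW 1 and at 3.09 to 7.26 in the other 16 libraries. HEL_007961 was at 83.1 and 84.7 CPM in himera HW 1 and FW 1 and at 1.53 to 4.02 elsewhere. Neither was called between taxa. HEL_000410 was at 30.97 and 19.9 CPM in himera HW 1 and FW 1, and HEL_000411 at 35.4 and 17.0. Outside himera 1 both were read mainly in petiverana 2 and 3, at up to 2.22 and 2.73 CPM in petiverana FW 2. The positions of the IDs were not analysed here, so consecutive numbers do not show that these genes are neighbours. Of the 31 members 12.9% were next to another, against 28.4% of the 95 IDs that the same rule took for petiverana number 1. The lists differ in length, and the share for IDs drawn at random was not computed. These shares therefore do not show whether consecutive numbers are rare or common among the members.

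The rule asked for high levels in both himera 1 libraries, so their ratio is given as a description. The ratio of himera HW 1 to himera FW 1 had a median of 1.02 and ran from 0.698 to 2.08, with 18 members higher in HW 1 and 13 higher in FW 1. Among the 4143 IDs with at least 96 reads in both libraries the median was 1.03 and the 5th to 95th percentile range 0.763 to 1.46, and 7 members lay outside it. The largest ratio toward the hindwing was that of HEL_000411, at 2.08 (95% counting interval 1.60 to 2.71, from 152 and 96 reads), followed by HEL_010479 at 1.71 (1.40 to 2.09), which was at 54.5 and 31.9 CPM. Toward the forewing, HEL_009998 was at an FW 1 to HW 1 ratio of 1.43 (1.18 to 1.74) and HEL_010946 at 1.42 (1.19 to 1.71). These intervals compare 2 libraries and cover counting error only. For 11 members the interval covered 1.

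**Figure D4:**
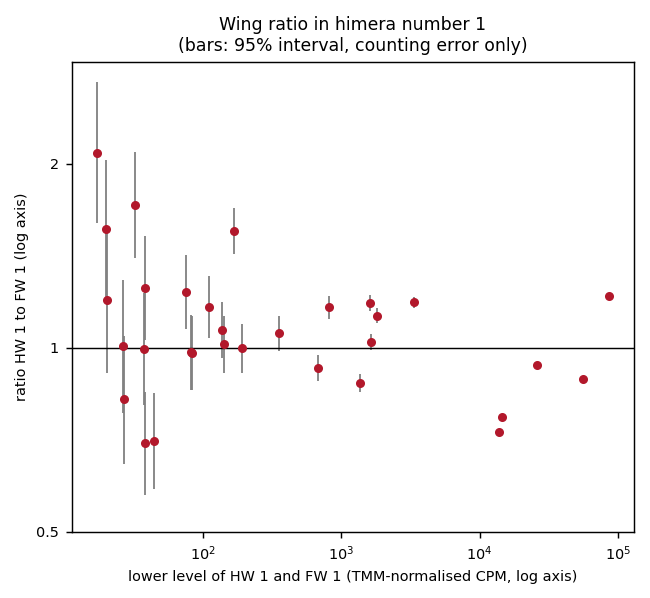
Ratio of himera HW 1 to himera FW 1 in TMM-normalised CPM for each of the 31 IDs, against the lower of the 2 levels, both on log axes, with 95% counting intervals. The ratios run from 0.698 to 2.08 and the widest intervals belong to the IDs with the fewest reads.

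Between HW and FW within a taxon, edgeR called 0 members in himera (30 tested), 0 in petiverana (27 tested) and 0 in lativitta (27 tested). Of these tested members 0 had an unadjusted p under 0.05 in each taxon, and DESeq2 called 0. Over all IDs the shares called higher in HW were 0.0201% in himera, 0.0195% in petiverana and 0.0195% in lativitta, and the shares called lower were 0.0%, 0.0% and 0.00977%. The himera test says little about these IDs, because its groups pool himera 1, on which the members were chosen, with numbers 2 and 3. HEL_002655, for example, had a mean of 18764 ± 32483 CPM in himera HW (SD, n = 3). HEL_013359, HEL_011682 and HEL_000411 were tested there and not in the fit of 16 libraries. Without himera 1 the himera count was also 0. With the replicate block within each taxon the counts remained 0. Whether the taxon differences depended on the wing was tested as an interaction, which called 0 of 27 members in each of the 3 pairs of taxa, with 1, 1 and 0 at an unadjusted p under 0.05.

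Petiverana number 1 stands apart within its race, so the members were also compared with that pair of libraries. Both petiverana number 1 libraries lay above all 4 of petiverana 2 and 3 for 9 members and below all 4 for 6, against 23.8% and 27.7% of all IDs read in petiverana. Among the 9 were HEL_002655, HEL_009949, HEL_010318, HEL_002142 and HEL_005388, and among the 6 were HEL_006245 and HEL_001207. The same rule applied to petiverana number 1 took 95 IDs, against 31 for himera number 1, 20 for petiverana 3, 13 for petiverana 2, and 5 or fewer for every other pair. The 95 IDs had a median of 22.0 CPM in himera 1, against 4.07 in himera 2 and 3. The 31 IDs had a median of 5.45 CPM in petiverana 1 and 4.09 in petiverana 2 and 3. The levels of the 31 IDs in petiverana are thus not confined to its number 1 libraries. With petiverana number 1 left out of the fit, 14 members were higher in petiverana than in lativitta in HW and 16 in FW, of which 13 and 14 were also called with it. The share called over all IDs is not given for this fit, so these counts have no background beside them. HEL_002655 was lost in HW and HEL_004224 in FW, HEL_014452 was gained in FW, and HEL_000410 was gained in both wings (edgeR adjusted p = 0.034 in HW and 0.0203 in FW). HEL_000410 had 0 reads in both petiverana number 1 libraries, so leaving them out, chosen after seeing the data, removed low petiverana values. With 0 reads in lativitta and 2 in himera 2 and 3, it was testable only through petiverana.

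**Figure D5:**
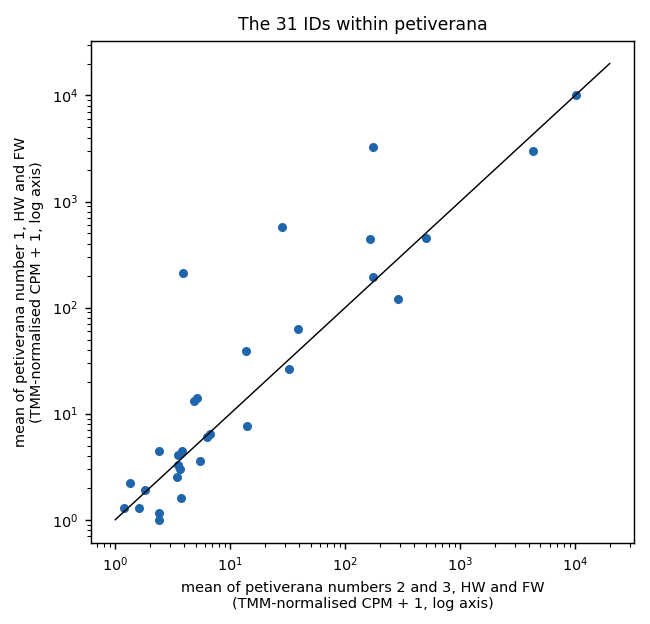
Mean level of each of the 31 IDs in petiverana 1 against its mean in petiverana 2 and 3, in TMM-normalised CPM + 1 on log axes, with the line of equality. For 15 IDs the petiverana 1 mean is the higher, and HEL_002655, HEL_009949 and HEL_010318 lie farthest above the line.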

How the data were processed

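Poly-A RNA was sequenced from 18 wing libraries. The authors deposited unnormalised read counts for each library in a file of its own, listed by gene ID. The submitters' processing notes list TopHat, bedtools and DESeq2 and give no role for any of them; versions, like the build, annotation and strand setting, were not given in the sources used here, so overlapping, antisense or near-identical genes are uncertain. The 5 summary rows held 49.4% to 62.4% of reads and were left out. One ID list served all taxa, and alignment can differ between them.

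The analysis used edgeR 4.0.16 in R 4.3.3 (filterByExpr on the 6 groups, TMM, glmQLFit, glmQLFTest, adjusted p threshold 0.05). The fit of 16 libraries, without himera number 1, kept 10238 IDs with 10 residual degrees of freedom, and the fit of 18 libraries, used for the himera wings, kept 9957 with 12. Steps were tested on simulated counts. SE were derived from the F statistic.

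The members and lists were chosen with earlier results of these data known. Named IDs were the 2 highest in ratio, level, wing ratio each way and level elsewhere, the 2 lowest ranked and the 2 just outside, the 2 extreme calls per comparison and direction, and runs of consecutive numbers. Other settings were DESeq2 1.42.0, median-of-ratios factors, no filter, only the groups compared, a replicate block, 1 library left out and, chosen after seeing the data, leaving out petiverana or himera number 1 or the members from the scaling. Lists of named genes and markers were not used. Libraries of a group all differed beyond sampling noise (chi-square per degree of freedom of at least 13.1). Deviations from the group means correlated between HW and FW of equal number (himera r = 0.92, 0.87, 0.85, petiverana r = 0.93, 0.85, 0.87). Number 1 stood far from numbers 2 and 3 in both taxa, which can raise r whichever numbers are matched. No r of unequal numbers is given, so these r do not show that the wings of numbers 2 and 3 are paired. Chi-square per degree of freedom in himera was 33.2 for HW 2 with FW 2 and 83.6 for HW 3 with FW 3. It was 31.7 for HW 2 with HW 3 and 13.8 for FW 2 with FW 3. In petiverana the values in this order were 8.71, 13.5, 49.3 and 52.5. In lativitta r was 0.60, -0.53 and -0.46, and across taxa -0.14 to 0.07, which pairs no libraries.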

Additional observations from a re-analysis of the deposited data

How the results depend on the processing

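The rule took 8 IDs with a ratio of 8 and 54 on TMM-normalised CPM, and 31 to 45 with 1 library left out. Leaving out 1 library gave 6 to 12 members for himera 2 and 3 against petiverana in HW and 7 to 13 in FW, 0 to 2 and 0 to 1 against lativitta, and 11 to 15 and 11 to 16 for petiverana against lativitta. Fitting only the groups compared gave 7 members lower in himera than petiverana in FW. For himera 2 and 3 against lativitta, DESeq2 gave 2 in HW and 1 in FW, leaving out petiverana number 1 gave 2 and 2, and the replicate block 2 and 1. The block by number, which pairs no taxa, gave 11 and 12 against petiverana and 14 and 14 for petiverana against lativitta. Shares called over all IDs are not given for these other settings. In the wing tests every setting gave 0. Of the members called, those called under every setting with a value were 6 of 10 in HW and 7 of 11 in FW for himera against petiverana, 0 of 1 against lativitta in HW, and 11 of 14 and 11 of 15 for petiverana against lativitta. All but HEL_002655 in HW kept their sign. DESeq2 gave HEL_009949 no adjusted p. The causes were not tested. Himera groups of 2 libraries, few reads of low members, and unnamed IDs limit these results.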
